A study of Homo sapiens with 8 samples.

Results

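The genes described here encode 7 RNA-binding proteins of stress granules and of the FET family: TIA1, TIAL1, EWSR1, TAF15, TARDBP, G3BP1 and ATXN2. Every skipped-exon event whose gene symbol was one of the 7 was taken from both deposited tables, which gave 143 events over 84 exons, of 123924 events in all. An event is a middle exon together with the exons on either side of it, so an exon can appear in several events that share reads. EWSR1 had 50 events, ATXN2 34, TAF15 20, TIA1 12, TIAL1 10, TARDBP 9 and G3BP1 8.

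The RNA came from MCF10A, a non-tumorigenic breast epithelial cell line, and from HMLE TWIST, immortalised breast epithelial cells that overexpress the transcription factor TWIST from an integrated retroviral vector. Each line was treated for 24 hours with the solvent DMSO, the control, or with 10 µM emetine, an alkaloid that blocks translation. There were 4 groups of 2 libraries, which the study's design text calls biological replicates, and the study's title concerns splicing regulators that act through RNA G-quadruplexes, stacked structures formed by guanine-rich RNA. The HMLE TWIST cells carry the vector in both of their groups, and the lines also differ in origin, so TWIST and cell line cannot be told apart.

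Stress granules are assemblies of untranslated mRNA and RNA-binding proteins that form when translation initiation is blocked. G3BP1 nucleates them, TIA1 and its paralog TIAL1 join through prion-like domains, and ATXN2 binds the poly(A)-binding protein. In the nucleus TIA1 and TIAL1 bind uridine-rich sequence behind weak donor splice sites and promote use of the exon. EWSR1 and TAF15 belong to the FET family and bind RNA polymerase II, and TDP-43, the product of TARDBP, represses cryptic exons. Many genes of RNA-binding proteins carry poison exons, whose inclusion puts a stop codon early in the reading frame. Such an mRNA is a target of nonsense-mediated decay, a surveillance pathway coupled to translation.

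Sequences of exons with a called event are shown first, chosen for their place in the reading frame and not ranked by size of change. Their sequence and place were read from GENCODE 29 transcripts (GRCh38) of the same gene with the same exon length and the same neighbouring intron lengths, and their coordinates are those of the deposited tables (GRCh37, per the submitters' processing notes). The first 4 sequences start at the 5′ end of an alternative exon that no matched coding transcript contains and run to its first in-frame stop codon, in capitals, with the frame carried in from the exon before. They are shown because the stop shows what inclusion would do to the reading frame.
TIA1, 66-nt exon, chr2:70452460-70452525, minus strand: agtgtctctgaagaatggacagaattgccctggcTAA
TIAL1, 376-nt exon, chr10:121339983-121340358, minus strand: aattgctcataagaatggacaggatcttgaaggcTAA
TIAL1, 68-nt exon, chr10:121339983-121340050, minus strand: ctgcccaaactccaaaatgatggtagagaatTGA
ATXN2, 45-nt exon, chr12:111920591-111920635, minus strand: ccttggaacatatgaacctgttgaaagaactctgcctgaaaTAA

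The TIA1 66-nt exon and the TIAL1 376-nt exon, in paralogous genes, resembled each other in sequence and place. In coding transcripts of both genes its place is between an 88-nt and a 76-nt exon. The deposited event of the TIA1 66-nt exon lists a 105-nt exon before it, and the 88 bases next to the poison exon were compared. In both the TIA1 66-nt and the TIAL1 376-nt exon the stop TAA starts at base 35. Bases 6 to 61 of the TIA1 66-nt exon and of the TIAL1 376-nt exon aligned without a gap, and 41 of the 56 positions were identical (73.2%). The 68-nt form of TIAL1 was less alike: 37 positions aligned with the TIA1 66-nt exon, 23 of them identical (62.2%), and its stop is a TGA at base 32. The flanking coding exons were more alike than either, with 73 of 88 identical positions before the poison exon (83%) and 59 of 72 after it (81.9%).

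The remaining sequences are whole exons of TIA1, TAF15 and ATXN2 that belong to coding transcripts. TAF15 exon 4 has alternative donor sites, and the capitals mark the bases that only the 85-nt form holds.
TIA1, 33-nt exon, chr2:70456191-70456223, minus strand: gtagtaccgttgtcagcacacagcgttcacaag
TAF15, 85-nt exon, chr17:34147168-34147252, plus strand: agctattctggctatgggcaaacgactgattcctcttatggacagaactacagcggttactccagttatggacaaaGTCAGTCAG
TAF15, 35-nt exon, chr17:34160911-34160945, plus strand: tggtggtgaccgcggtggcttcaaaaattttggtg
ATXN2, 169-nt exon, chr12:111891481-111891649, minus strand: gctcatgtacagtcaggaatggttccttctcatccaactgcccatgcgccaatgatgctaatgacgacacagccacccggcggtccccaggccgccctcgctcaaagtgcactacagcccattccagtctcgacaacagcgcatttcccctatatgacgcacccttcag

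Each MCF10A library held 78412292 to 83483642 junction reads summed over all events, and each HMLE TWIST library 90031966 to 91259363. Over member events the MCF10A libraries had 106861 and 111380 with DMSO against 178679 and 181856 with emetine, and those of HMLE TWIST 98790 and 116996 against 181951 and 199256. Summed over member events, coverage was thus higher under emetine in both lines. This did not hold for each gene. In MCF10A a G3BP1 event had 2143 and 2489 reads with DMSO and 1989 and 1849 with emetine. Over all events the median reads per event was also higher under emetine. It was 229 and 234 with DMSO against 294 and 274 in MCF10A, and 219 and 202 against 308 and 278 in HMLE TWIST. Among 6 epithelial markers, CDH1, ESRP1 and ESRP2 had 0 to 9 junction reads in every HMLE TWIST library, at their best-covered event, against 236 to 1563 in MCF10A. KRT5 had events in the MCF10A table only (30793 to 54251 reads), and EPCAM and GRHL2 had no event to read. Of 7 mesenchymal markers, VIM, FN1, ZEB1, ZEB2 and SPARC had more reads in every HMLE TWIST library than in any of MCF10A, and CDH2 and COL1A2 had events in HMLE TWIST only. The HMLE TWIST libraries, labelled epithelial, thus had epithelial markers at or near 0, and the part of this in any difference between the lines was not tested. Several markers also differed with emetine within a line. In MCF10A, CDH1 had 1362 and 1563 reads with DMSO and 358 and 415 with emetine, and VIM 24923 and 28296 against 5912 and 6343. In HMLE TWIST, VIM had 190386 and 181765 against 103994 and 95897, and COL1A2 6069 and 11332 against 343 and 510. The part of these shifts in the emetine comparisons below was not tested.

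The inclusion level of an exon is the estimated share, from 0 to 1, of transcripts with either form of the event that contain the exon. It was computed from junction reads for each form divided by the effective length of that form. It leaves out other forms of the same exon, so the levels of alternative forms are not shares of one total. It reflects both how often the exon is spliced in and how long each form lasts, and in bulk RNA a shift within cells and a shift in the mix of cells cannot be told apart. An event was tested where every library had at least 20 reads and the rarer form at least 10 reads in all. Of the 143 member events 51 were tested in at least one line, and 92 in neither. Of 91 member events listed for MCF10A, 40 were tested, 10 were short of reads, and 41 had enough reads but fewer than 10 from the rarer form. In HMLE TWIST 46 of 128 were tested, 21 were short of reads and 61 lacked the rarer form.

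Exons of 4 of the 7 genes, TIA1, TIAL1, TAF15 and ATXN2, changed with emetine in each line. An event was called where the adjusted p of a quasi-binomial model with limma-moderated dispersions was under 0.05 over all events tested and the mean level moved by at least 0.1. In MCF10A 8 of 40 member events were called (20%), 4 higher and 4 lower, against 13.0% of all tested events, of which 7.90% were higher and 5.15% lower. In HMLE TWIST 9 of 46 were called (19.6%), 2 higher and 7 lower, against 14.0% of all tested events, with 6.11% higher and 7.91% lower. The median change of the tested members was -0.00115 in MCF10A and -0.00299 in HMLE TWIST, beside -0.000168 and -0.00315 for all tested events. With limma on the log odds 4 of the 8 MCF10A calls and 7 of the 9 HMLE TWIST calls remained, and limma called 7.88% and 9.94% of all events. In the authors' deposited tables all 8 and all 9 had an FDR under 0.05, at most 1.92e-06 and 0.000194.

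**Figure D1:**
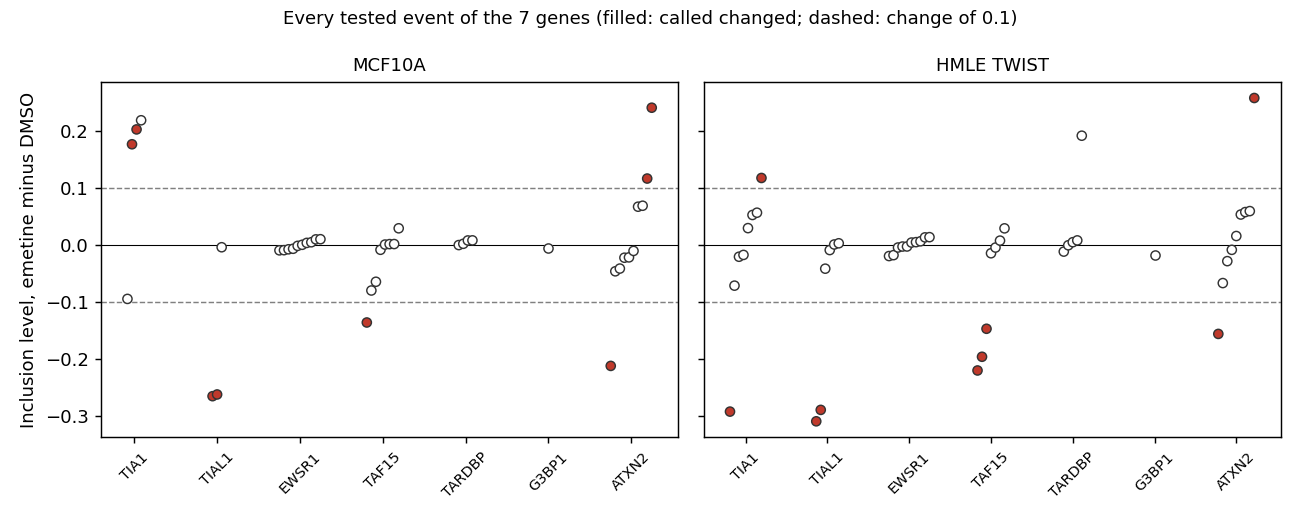
Change of inclusion level (emetine minus DMSO, group means of 2 libraries) for every tested event of the 7 genes in MCF10A (left, 40 events) and HMLE TWIST (right, 46 events); filled points were called and dashed lines mark a change of 0.1. Called events belong to TIA1, TIAL1, TAF15 and ATXN2, and the open points past the lines are a TIA1 event in MCF10A (0.218) and a TARDBP event in HMLE TWIST (0.191), both with fewer than 35 reads in each control library.

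TIA1 changed at 3 neighbouring exons. The 33-nt exon is coding exon 5 of 13, in frame, and separates the known TIA1 isoforms a and b. With it the reading frame has 386 codons and without it 375. Its level was 0.878 and 0.878 in the MCF10A DMSO libraries, 0.745 and 0.822 with emetine, 0.813 and 0.730 in the HMLE TWIST DMSO libraries and 0.503 and 0.456 with emetine. Both emetine libraries lay below both controls in each line, and the lowest levels were those of HMLE TWIST under emetine. In HMLE TWIST the exon fell from 0.771 ± 0.0585 to 0.479 ± 0.0335 (mean ± SD, n = 2), a change of -0.292 (adjusted p = 0.00144, limma-moderated quasi-binomial model). The MCF10A change of -0.0947 (adjusted p = 0.0373) was under the size required for a call. The difference of the level changes was -0.197, HMLE TWIST minus MCF10A. The response was not called different between the lines on the log-odds scale (adjusted p = 0.444, limma-moderated model).

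Next to it lies a 119-nt exon (chr2:70455476-70455594) that occurs in 1 matched transcript, annotated as a decay target. Its length shifts the frame, and the first stop met is in the following exon, 670 nt ahead of the last exon junction. It was included at 0.0741 and 0.0608 in the MCF10A DMSO libraries and at 0.254 and 0.285 with emetine, and at 0.0742 and 0.0435 against 0.205 and 0.148 in HMLE TWIST. The groups did not overlap in either line. Inclusion of the 119-nt exon rose by 0.202 in MCF10A (adjusted p = 6.59e-05, limma-moderated model) and by 0.117 in HMLE TWIST (adjusted p = 0.0107). In HMLE TWIST the call was lost with limma on the log odds (adjusted p = 0.0659) and without the second listed control, where the size was 0.102.

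The 66-nt poison exon of TIA1, between exons 6 and 7, had levels of 0.105 and 0.0692 in the MCF10A DMSO libraries and 0.283 and 0.242 with emetine. The HMLE TWIST values were 0.0647 and 0.123 with DMSO and 0.0635 and 0.0892 with emetine. The groups stood apart in MCF10A and overlapped in HMLE TWIST. Inclusion of the 66-nt exon rose by 0.176 in MCF10A (adjusted p = 0.000609, limma-moderated model), just missing the threshold with limma on the log odds (adjusted p = 0.0504). In HMLE TWIST the change was -0.0177 (adjusted p = 0.648). It was the only member event, of 51 tested, whose response was called different between the lines, where 1.60% of all events were called. The interaction was tested on the log-odds scale (adjusted p = 0.0143, limma-moderated model), and the difference of the level changes was -0.193. That call was lost with limma on the log odds (adjusted p = 0.326) and when any of 6 of the 8 libraries was left out, with sizes from -0.164 to -0.214.

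TIAL1 moved the other way at its poison exon, which was common in control cells. Both forms share an edge: the 68-nt and the 376-nt exon end at the same donor and lie between exons 5 and 6. They were set against the same skipping reads, 40 to 105 per library. Inclusion reads across the junction from that donor also count for both forms, so the calls of the 2 forms are not independent. The 376-nt form, found in 1 decay-target transcript, was at 0.507 and 0.364 in the MCF10A DMSO libraries and 0.156 and 0.186 with emetine. In HMLE TWIST it was at 0.448 and 0.317 with DMSO and 0.117 and 0.0706 with emetine. In each line every emetine library was below every control. The 376-nt form fell by 0.265 in MCF10A (adjusted p = 0.00144, limma-moderated model) and fell by 0.289 in HMLE TWIST (adjusted p = 0.00265).

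The 68-nt form of TIAL1, seen in 1 processed transcript, was at 0.494 and 0.422 in the MCF10A DMSO libraries and 0.243 and 0.150 with emetine. In HMLE TWIST the values were 0.480 and 0.482 against 0.180 and 0.164. The groups again did not overlap. The 68-nt form fell by 0.262 (adjusted p = 0.00239, limma-moderated model) and fell by 0.309 (adjusted p = 0.0012), and neither form was called different between the lines (differences of -0.0475 and -0.0238). With limma on the log odds both MCF10A calls of TIAL1 were lost (adjusted p = 0.0671 and 0.0591), while both in HMLE TWIST remained (0.026 and 0.0324).

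**Figure D2:**
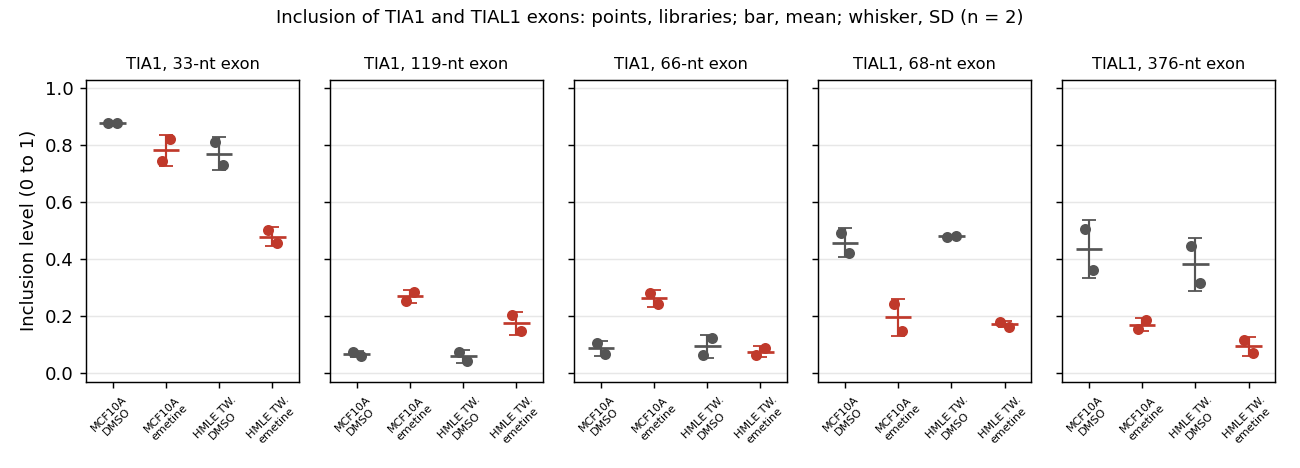
Inclusion level (0 to 1) of 3 TIA1 and 2 TIAL1 exons in each library: grey points are DMSO, red points emetine, the bar is the group mean and the whisker the SD of 2 libraries. The TIA1 119-nt exon sits higher under emetine in both lines and the 66-nt exon in MCF10A, while both TIAL1 forms sit lower in both lines.

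By the smaller of an event's changes in the 2 lines, the TIAL1 376-nt event ranked first among the members (0.265 in size, against 0.262 for the 68-nt form). Of 19025 events tested in both lines, those of other genes with the nearest 4 group means were a 113-nt exon of WDR73 (Euclidean distance 0.0398), a 90-nt exon of TRA2A, itself a splicing regulator (0.0491), and a 197-nt exon of HERC2P9 (0.0602). HERC2P9 is a pseudogene with near copies, so its reads are uncertain.

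EWSR1 had 10 tested events in each line and none was called, with changes between -0.0097 and 0.0098 in MCF10A and between -0.0197 and 0.0134 in HMLE TWIST. Its best-covered one, the in-frame 168-nt coding exon 7 of 18 (chr22:29678379-29678546), had at least 3357 reads per library. The levels of this exon were 0.988 and 0.987 in the MCF10A DMSO libraries, 0.986 and 0.988 with emetine, 0.980 and 0.985 in the HMLE TWIST DMSO libraries and 0.987 and 0.986 with emetine. All 8 libraries thus lay within 0.980 to 0.988.

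TAF15 lost inclusion of coding exons that were almost constitutive in control cells. Exon 4 of 16 exists as a 76-nt and an 85-nt form, and removing either shifts the frame to a TGA in exon 7, 1240 nt ahead of the last junction. Reads that skip exon 4 numbered 5 and 5 in the MCF10A DMSO libraries, 132 and 119 with emetine, 2 and 3 in the HMLE TWIST DMSO libraries and 255 and 165 with emetine. In both lines skipping reads were thus scarce in every control and frequent in every emetine library. The 76-nt form was at 0.993 and 0.993 in the MCF10A DMSO libraries, 0.854 and 0.861 with emetine, 0.998 and 0.995 in the HMLE TWIST DMSO libraries and 0.765 and 0.789 with emetine.

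The 76-nt form of TAF15 exon 4 fell by 0.136 in MCF10A (adjusted p = 1.54e-06, limma-moderated model) and fell by 0.22 in HMLE TWIST (adjusted p = 1.17e-05). The 85-nt form, with the same skipping reads and more inclusion reads, went from 0.996 ± 0.000167 to 0.916 ± 0.0044 in MCF10A, a change of -0.08 that was too small for a call. In HMLE TWIST it fell from 0.998 ± 0.00105 to 0.851 ± 0.0121 (n = 2), a change of -0.147 (adjusted p = 1.02e-05). The 76-nt and 85-nt forms start at the same acceptor and share reads across that junction, so their changes are not independent. Without the correction for effective length 2 of these changes were below 0.1, that of the 76-nt form in MCF10A (-0.0825) and that of the 85-nt form in HMLE TWIST (-0.0855).

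Exon 8 of TAF15, 35 nt long, also shifts the frame when removed, to a TGA in exon 9, 1068 nt ahead of the last junction, and the matched skipping transcript is annotated as a decay target. Its level was 0.993 and 0.993 in the MCF10A DMSO libraries, 0.933 and 0.923 with emetine, 0.987 and 0.993 in the HMLE TWIST DMSO libraries and 0.801 and 0.788 with emetine. The emetine libraries lay below the controls in both lines, and those of HMLE TWIST were the lowest. Exon 8 fell by 0.196 in HMLE TWIST (adjusted p = 9.39e-06, limma-moderated model). In MCF10A the change was -0.0647 (adjusted p = 1.27e-05), under the size for a call. The difference of the level changes was -0.131, which was not itself tested. The interaction, tested on the log-odds scale, was not called (adjusted p = 0.361, limma-moderated model).

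TARDBP and G3BP1 had no called event. The best-covered TARDBP exon, the in-frame 171-nt coding exon 5 of 6 (chr1:11080486-11080656), was at 0.994 to 1.0 in every library, with at least 1769 reads. The 91-nt coding exon 5 of 12 of G3BP1 (chr5:151173720-151173810), whose removal brings a TAG in exon 6, had 0, 1, 1 and 2 skipping reads in the 4 control libraries. Under emetine it had 7 and 6 in MCF10A and 19 and 8 in HMLE TWIST. Every emetine library had more than every control, yet the changes were -0.00605 (adjusted p = 0.0289, limma-moderated model) and -0.0181 (adjusted p = 0.00872), far below 0.1.

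ATXN2 changed in opposite directions at different exons. The 169-nt coding exon 24 of 25 (chr12:111891481-111891649, minus strand) was at 0.686 and 0.698 in the MCF10A DMSO libraries, 0.934 and 0.931 with emetine, 0.601 and 0.653 in the HMLE TWIST DMSO libraries and 0.893 and 0.874 with emetine. Every emetine library was above every control. The 169-nt exon rose by 0.24 (adjusted p = 1.6e-05, limma-moderated model) and by 0.257 (adjusted p = 0.000214), and its removal would change the C-terminal end, with 1283 codons in place of 1313. The response was not called different between the lines on the log-odds scale (adjusted p = 0.638, limma-moderated model), and the level changes differed by 0.0166.

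The in-frame 54-nt coding exon 21 of ATXN2 (chr12:111902466-111902519) was at 0.436 and 0.346 in the MCF10A DMSO libraries, 0.152 and 0.205 with emetine, 0.418 and 0.419 in the HMLE TWIST DMSO libraries and 0.218 and 0.306 with emetine. Emetine libraries were lower in both lines without overlap. The 54-nt exon fell by 0.212 in MCF10A (adjusted p = 0.00048, limma-moderated model), which limma on the log odds did not call (adjusted p = 0.0765). It fell by 0.156 in HMLE TWIST (adjusted p = 0.0213), and there the call was lost with limma (0.16), with the event's own dispersion (0.111), with no read minimum (0.0828) and without either control library.

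The 45-nt poison exon of ATXN2 lies between exons 18 and 19 and was matched to 1 decay-target transcript. Its level was 0.0123 and 0.00564 in the MCF10A DMSO libraries and 0.125 and 0.124 with emetine, against 0.00739 and 0.0387 and then 0.0643 and 0.0877 in HMLE TWIST. Emetine libraries were higher than controls in both lines, and each control library had 1 to 5 inclusion reads. Inclusion of the 45-nt exon rose by 0.116 in MCF10A (adjusted p = 0.000788, limma-moderated model). The HMLE TWIST change was 0.053 (adjusted p = 0.0749).

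**Figure D3:**
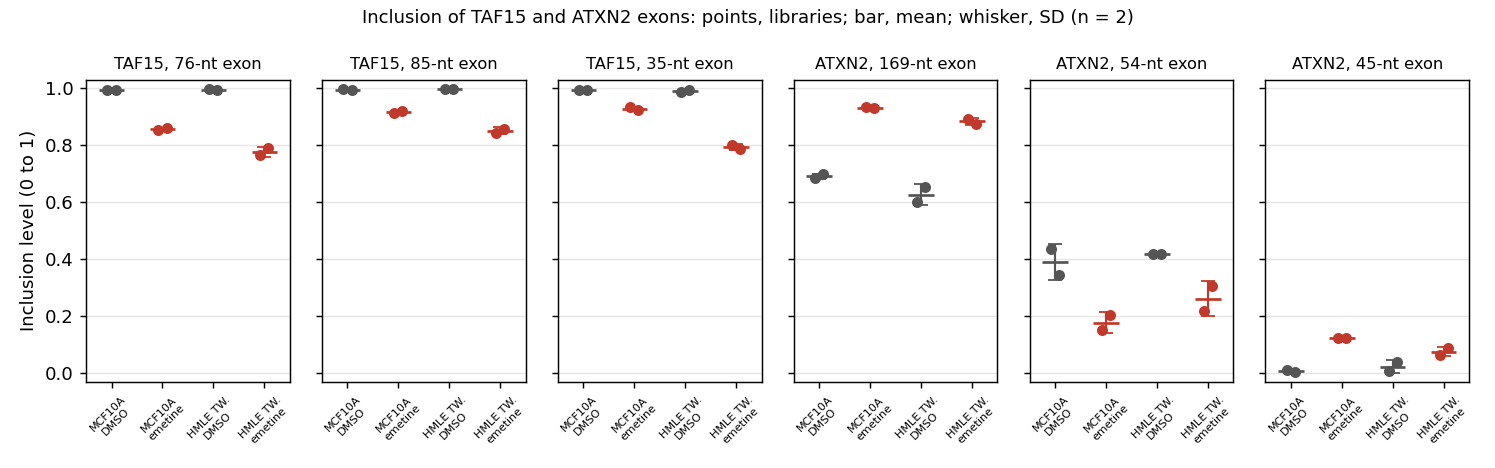
Inclusion level (0 to 1) of 3 TAF15 and 3 ATXN2 exons in each library: grey points are DMSO, red points emetine, the bar is the group mean and the whisker the SD of 2 libraries. TAF15 levels are near 1 in all controls and lower under emetine, the ATXN2 169-nt exon is higher under emetine and the 54-nt exon lower.

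Across both lines 11 member events were called, and 6 of them in each line: the TIA1 119-nt exon, both TIAL1 forms, the TAF15 76-nt form and the ATXN2 169-nt and 54-nt exons. Each of the 6 moved in the same direction in both lines, though both TIAL1 forms share reads and are not independent. They were 6 of 35 member events tested in both lines (17.1%), beside 1647 of all 19025 (8.66%), of which 1632 moved in the same direction. As a share of the calls among events tested in both lines, the 6 were 75% of those in MCF10A and 66.7% of those in HMLE TWIST, beside 59.5% and 49.6% over all events. Among the tested events without a call, 16 of 32 in MCF10A and 12 of 37 in HMLE TWIST had an adjusted p under 0.05 with changes of less than 0.1. These included a 210-nt ATXN2 exon (chr12:111953958-111954167) with changes of 0.0667 and 0.0573, and a 92-nt TAF15 exon (chr17:34136976-34137067) with 0.0289 and 0.0288, both picked after their values were seen.

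With DMSO no member exon was called between the lines. The count was 0 of 35 tested member events beside 6.48% of all events, and the member changes lay between -0.107 and 0.0312. Limma called 0 of the members as well, and 0.187% of all events. The low end of that range was the TIA1 33-nt exon, with a difference of -0.107 (adjusted p = 0.104, limma-moderated model). With emetine 4 of 50 member events were called (8%), beside 9.69% of all events, and each of the 4 was lower in HMLE TWIST, as were 7.74% of all events.

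The 4 were the TIA1 33-nt exon (-0.304, adjusted p = 1.63e-09), the TIA1 66-nt exon (-0.187, adjusted p = 2.35e-10), the TIA1 119-nt exon joined to the 55-nt exon upstream (-0.268, adjusted p = 2.53e-06) and the TAF15 35-nt exon (-0.134, adjusted p = 2.32e-10), all by the limma-moderated model. The TIA1 33-nt and 119-nt events share their skipping reads, 150 and 68 in MCF10A and 251 and 177 in HMLE TWIST. Their calls are thus not independent. The better-covered event of the 119-nt exon, joined to the 33-nt exon, differed by -0.0937 (adjusted p = 0.0196, limma-moderated model), too small for a call. Limma on the log odds called none of the 28434 events in this comparison, with 7901 at an unadjusted p under 0.05. The epithelial and mesenchymal markers above differ between the lines in the same libraries, and their part in these values was not tested.

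Other genes of the same assemblies were read from a list of 43 partners and translation-stress genes. In MCF10A 22 of their 206 tested events were called (10.7%), 14 higher and 8 lower, in 15 of 40 tested genes, against 13.0% of all events. In HMLE TWIST 24 of 231 were called (10.4%), 7 higher and 17 lower, in 15 of 42 genes, against 14.0% of all events. G3BP2, the paralog of G3BP1, had 2 and 3 tested events and CAPRIN1, a partner of G3BP1, had 4 and 6, with 0 called in each line. Other listed genes had events called in both lines, and those named here were picked after their values were seen. Each value is for 1 event of the gene, not for the gene as a whole. In MCF10A and HMLE TWIST the changes were -0.25 and -0.314 for ATXN2L and -0.399 and -0.462 for PRRC2C. They were -0.364 and -0.3 for MATR3 and 0.327 and 0.324 for HNRNPA2B1. ATXN2L had 8 and 10 tested events. Another of them, with 20 reads in its shallowest library, was called in MCF10A in the other direction (0.253). Of 10 genes known as splicing targets of TDP-43 or the TIA proteins, 13 of 54 tested events were called in MCF10A (24.1%, against 13.0% of all events), 10 higher and 3 lower. In HMLE TWIST 12 of 56 were called (21.4%, against 14.0% of all events), 8 higher and 4 lower. Of the listed TDP-43 targets, BRD8, MADD, POLDIP3 and STAG2 had called events in both lines. FNIP1 had 4 tested events in each line with none called, and SORT1 had no tested event. BRD8 alone gave 4 of the higher and 2 of the lower calls in MCF10A. These counts cover any exon of a gene, and some events are overlapping forms of the same exon. Of the listed TIA targets, NF1 and PPP1R12A had a called event in MCF10A, where 1 NF1 event changed by -0.186 (adjusted p = 0.00193, limma-moderated model), and neither had one in HMLE TWIST. FAS had 4 and 2 tested events with none called, and FGFR2 had no tested event.

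With either emetine library of a line left out, no member was called in that line, but no event of the whole table was either, of at least 21259 tested, so such a fit could make no call. The called exons kept their direction there.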

How the data were processed

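RNA from 8 libraries was sequenced as stranded paired-end polyadenylated RNA after Trizol extraction, per the labels' protocols. Reads were aligned with STAR 2.5.3a to GRCh37, per the submitters' processing notes. The authors deposited a skipped-exon table for each line in rMATS format, whose version and annotation are not given in the sources used here. The deposited count columns hold, per the file headers, inclusion and skipping junction reads, with both libraries of a group in a cell and no replicate number. The group named first in a table's name was taken as the first group of its header. The FDR is the authors' q-value and the difference is the authors' deposited score, per the file headers. The authors' effective lengths are 99 for skipping and 100 to 198 for inclusion.

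The tables were joined by exon and flanking coordinates. Inclusion and skipping counts were fitted per event with a quasi-binomial model (R 4.3.3), with dispersions moderated by limma 3.58.1 (squeezeVar), floored at 1, and a two-sided F test with Benjamini-Hochberg adjustment across every tested event. The fits were emetine against control in each line, their difference over 8 libraries, and HMLE TWIST against MCF10A within each treatment. The difference over 8 libraries was tested as an interaction on the log-odds scale, while its printed size is in inclusion level. The scripts were tested on simulated data. Alternatives were limma on log2 odds with 0.5 added to each count, other read minimums, dispersions and sizes, no length correction and leaving out each library. Replicates of a group differed beyond counting error (mean chi-square 2.08 to 2.19 per event), so none was a copy.

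Values per library are given for each exon called in any fit, at its best-covered called event, and for the best-covered event of each other gene. The members and lists were chosen with earlier results of these data known. Exons were matched to GENCODE 29 by structure, and no coordinates were converted. Protein sequences were not used here.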

Additional observations from a re-analysis of the deposited data

Results flagged for a closer look

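For the TIA1 66-nt poison exon the difference of the level changes was -0.193, HMLE TWIST minus MCF10A. The response of this exon was called different between the lines by the interaction, tested on the log-odds scale (adjusted p = 0.0143, limma-moderated quasi-binomial model). In MCF10A its level was 0.0873 ± 0.0256 with DMSO and 0.263 ± 0.0291 with emetine, and in HMLE TWIST 0.0941 ± 0.0415 and 0.0763 ± 0.0182 (mean ± SD, n = 2). The shallowest library had 111 reads. The difference was not called with limma on the log odds (adjusted p = 0.326), and its cause was not tested.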

How the results depend on the processing

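In MCF10A the 8 called member events became 4 with limma on the log odds, 13 with a minimum change of 0.05 and 5 with 0.2. In HMLE TWIST the 9 became 5 with 0.2. The 1 event with a different response became 0 with limma, with the event's own dispersion and with a minimum change of 0.2. The 4 events that differed between lines under emetine became 0 with limma, 9 with 0.05 and 2 with 0.2. Leaving out 1 library at a time gave 0 to 8 calls in MCF10A, 0 to 8 in HMLE TWIST, 0 to 1 for the difference of responses and 3 to 5 between lines under emetine, and the comparison of lines with DMSO gave 0 in every fit. Of 21 calls of named exons over all comparisons, 0 were lost with 10 or 50 reads per library or, an alternative added after seeing the data, with one shared dispersion, 10 with limma, 2 without length correction, 2 with the event's own dispersion and 1 with no read minimum. No called exon reversed its direction in these fits. Where no cause is given above it was not tested. No paired analysis was possible because the 2 values in a cell carry no replicate number. Tested events have as few as 20 reads in a library, and with 2 libraries per group a small change in a thinly covered event was not detectable at this depth.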

Other observations

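A 272-nt exon of TARDBP (chr1:11084121-11084392) had levels of 0.739 and 0.786 with DMSO in HMLE TWIST and 0.966 and 0.941 with emetine, a change of 0.191. The adjusted p was 0.0593 in the limma-moderated quasi-binomial model and 0.0222 with limma on the log odds. The controls had 20 and 25 reads and the emetine libraries 232 and 198, so the control levels rest on 3 skipping reads each.

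A 76-nt exon of EWSR1 (chr22:29684976-29685051) was not tested because its control libraries had 4 to 10 reads. In its best-covered event MCF10A had 0 skipping reads in both controls, of 7 and 4 reads, and 27 and 22 under emetine, of 100 and 92. In HMLE TWIST there was 1 skipping read in each control, of 10 and 9 reads, and 10 and 12 under emetine, of 72 and 44. In the authors' deposited tables this event had a difference of -0.375 (FDR 0.000251) in MCF10A and -0.137 (FDR 0.481) in HMLE TWIST. Another event of the same exon, listed for HMLE TWIST only, went the other way in the authors' deposited table (0.259, FDR 0.0128), with 13 to 44 reads per library. An ATXN2 exon (chr12:111947695-111947802) was also untested. Its difference in the authors' deposited tables was -0.645 (FDR 0.000108) in MCF10A and -0.216 (FDR 0.00256) in HMLE TWIST. In each line it fell short of the minimum reads in a library or of the rarer form, so these differences may rest on few reads.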
